A study of Mus musculus with 5 samples.

Results

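Tcf7, Lef1, Ccr7, S1pr1, Klf2, Klf3, Slamf6, Bach2 and Satb1 are genes of naive and stem-like T cells, and they were followed here through every T cell gate and library of the series. They are a list of names, and each of the 9 symbols matched 1 row of the 32285 genes counted in the T cell libraries and 1 row of the 54987 counted in the whole-tumor libraries. Tcf7 (encoding TCF1), Lef1, Klf2, Klf3, Bach2 and Satb1 encode DNA-binding regulators. Ccr7 and S1pr1 encode receptors that steer T cells into and out of lymph nodes, and Slamf6 encodes a homophilic surface receptor of the SLAM family.

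As background, TCF1 and LEF1 are HMG-box factors that keep T cells naive or self-renewing. BACH2 restrains effector genes, and SATB1 organizes chromatin in thymocytes and peripheral T cells. KLF2 maintains the transcription of S1pr1, and CCR7 binds the chemokines CCL19 and CCL21 that draw cells to lymph nodes. In tumors and chronic infection, the CD8 cells that sustain a response are known as stem-like or progenitor cells, and TCF1 with SLAMF6 marks them within the PD-1+ pool. Terminally exhausted CD8 cells keep PD-1 and lose TCF1.

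The tumors were allografts of 4T1-Thy1.1, a mouse triple-negative breast cancer line carrying the Thy1.1 marker, in the mammary fat pad of immune competent female BALB/c mice aged 12 weeks. Doxorubicin (DOX, a DNA-damaging anthracycline) was given intravenously at 5 mg/kg in 3 doses, 3 days apart, and the control mouse received saline. After DOX, tumors were binned as sensitive or resistant by their growth. In the T cell libraries, T cells of 3 tumors were pooled before 1 library was made from sensitive and 1 from resistant tumors, both DOX-treated, after magnetic depletion of other cells and of CD90.1 (Thy1.1) cells. The whole-tumor libraries are 1 labelled control, 1 labelled sensitive and 1 labelled resistant, although for the last the source field and the sensitivity field of the labels disagree. With 1 library in each group there was no replicate check, so no p-value was computed, and every interval below is a 95% interval that covers counting error only.

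The T cell libraries held 3949 (sensitive) and 6116 (resistant) barcodes with 31690845 and 35908799 unique molecular identifiers (UMIs, each a counted RNA molecule). After the limits on genes and mitochondrial UMIs and the removal of 112 and 159 likely doublets, 3448 and 3091 cells were kept. Only 31 barcodes, 0.785% of the smaller library, were shared between them. The libraries differed in RNA quality, with a median mitochondrial share of 2.47% over all sensitive barcodes and 8.95% over all resistant ones. Among T cells the median share was 2.56% and 5.74%, and the part of this difference in the results below was not tested.

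T cells were cells with a Cd3d, Cd3e or Cd3g UMI in clusters made without the 9 genes. The sensitive library had 1952 and the resistant library 1828. CD8 cells (a Cd8a or Cd8b1 UMI, no Cd4 or Foxp3) were split by the presence of a Pdcd1 UMI, Pdcd1 being the gene of PD-1. The CD8 gate held 66.4% of sensitive and 84.9% of resistant T cells, and its Pdcd1+ part 37.4% and 58.1%. CD4 cells (a Cd4 UMI, no Cd8 or Foxp3) numbered 177 and 46 and Foxp3+ cells 47 and 11. Gamma-delta cells (a Trdc UMI, no Cd4 or Cd8b1) numbered 81 and 21, and 351 and 198 T cells fell in no gate. Cd3e was detected in 81.8% to 99.6% of the cells of each gate, and Il2ra, Ctla4 and Ikzf2 in 45.5% to 97.9% of Foxp3+ cells. The gamma-delta gate was less clean. Tcrg-C1 was found in 63.0% and 38.1% of its cells, Trac in 27.2% and 4.76%, and a UMI of 5 NK cell markers in 25.9% and 47.6%, against 10.8% to 17.5% in the CD8 gates. Since a gate is read from single UMIs, a Pdcd1- cell is a cell in which Pdcd1 was not captured.

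The start regions of 3 of the genes are shown because the first and last hold a match to a regulator of this same set and the second, with none, belongs to a gene that changes alongside them. Sequences are from RefSeq on GRCm38.p6, whose promoter windows (250 bases before a start and 50 after) were found for 7 of the 9 genes as 15 windows. Capitals mark the matched motif, and each sequence is given 5′ to 3′ on the strand of the gene.
Tcf7 at chr11:52282596-52282711, minus strand, upstream of an internal start: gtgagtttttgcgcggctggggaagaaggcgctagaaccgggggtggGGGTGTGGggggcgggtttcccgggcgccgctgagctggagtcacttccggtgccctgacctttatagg
Klf2 at chr8:72318812-72319032, plus strand: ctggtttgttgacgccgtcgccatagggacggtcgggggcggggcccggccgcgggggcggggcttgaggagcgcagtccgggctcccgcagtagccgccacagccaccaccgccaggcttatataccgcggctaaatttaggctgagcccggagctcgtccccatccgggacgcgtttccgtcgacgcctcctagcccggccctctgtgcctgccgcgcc
Satb1 at chr17:51812185-51812214, minus strand, in a UTR upstream of an internal start: taacgggttccgCTTTGTTtttacgactcc

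Of the motifs searched on both strands, GGGTGTGG (a KLF motif) lay 69 bases before an internal start of Tcf7 and was held by 3.56% of all 32851 promoter windows of the same length. GTAAACA (FOXO, held by 3.65% of windows) lay 2 bases past that same start. CTTTGTT, a spelling of the TCF/LEF motif held by 5.85% of windows, lay 18 bases before a start of Satb1 that is inside the gene, and the 30 bases shown lie in an annotated UTR. CTTTGAT (TCF/LEF, 3.73%) and TGAGTCA (BACH and AP-1, 5.202%) were in none of the windows of the 7 genes. These are matches of letters and not binding sites, and none of the motif strings contains another. By the GENCODE annotation on GRCm38, Tcf7 spans chr11:52252371-52283014, Lef1 chr3:131110471-131224356, Ccr7 chr11:99144196-99155077, S1pr1 chr3:115710433-115715072 and Klf2 chr8:72319033-72321656. Klf3 spans chr5:64803388-64832901, Slamf6 chr1:171917515-171953170, Bach2 chr4:32238804-32586108 and Satb1 chr17:51736187-51833290.

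All 9 genes were found in both T cell libraries, and for most of them the lowest level was in CD8 Pdcd1+ cells and the higher levels in CD4, Foxp3+ and gamma-delta cells. Levels are UMIs of the gene per 1000000 UMIs (CPM) over all cells of the gate. Tcf7 was at 64.4 CPM (54.2 to 76.1) in sensitive and 33.0 CPM (25.4 to 42.0) in resistant CD8 Pdcd1- cells. In CD8 Pdcd1+ cells it was at 14.2 CPM (10.8 to 18.4) and 9.37 CPM (7.25 to 11.9). Tcf7 was at 51.7 and 80.5 CPM in CD4 cells, 58.0 and 74.9 CPM in Foxp3+ cells and 160 and 110.0 CPM in gamma-delta cells. In the sensitive library the gamma-delta level (118 to 210) stood above that of every other gate, and the CD8 Pdcd1-, CD4 and Foxp3+ levels had overlapping intervals. In the resistant library only 10 Tcf7 UMIs were found in gamma-delta cells, with an interval of 52.8 to 202 CPM that overlapped those of CD4 and Foxp3+ cells.

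Lef1, the close relative of Tcf7, was at 38.0 CPM (30.2 to 47.2) in sensitive and 10.7 CPM (6.59 to 16.3) in resistant CD8 Pdcd1- cells. With a Pdcd1 UMI the levels were 7.48 and 7.10 CPM. The intervals of sensitive CD8 Pdcd1-, CD4 (33.1 CPM), Foxp3+ (53.2 CPM) and gamma-delta (44.7 CPM) cells overlapped, so no order among these 4 can be read. In the resistant library, Lef1 in CD4 cells was at 57.5 CPM (27.6 to 106), above both CD8 gates.

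Klf2, the regulator of egress receptors, was at 115 and 87.2 CPM in CD8 Pdcd1- cells (sensitive, then resistant) and at 64.6 and 45.7 CPM in CD8 Pdcd1+ cells. It was at 305 and 178 CPM in CD4 cells, at 325 and 143 CPM in gamma-delta cells, and at 774 CPM (659 to 904) and 299 CPM (155 to 523) in Foxp3+ cells. Foxp3+ cells of the sensitive library thus stood apart from every other gate, and their 160 Klf2 UMIs came from 29 of 47 cells. In the resistant library the Foxp3+, CD4 and gamma-delta intervals overlapped. Klf3, a repressor of the same family, was at 13.0 and 8.11 CPM without and at 2.65 and 1.99 CPM with a Pdcd1 UMI in CD8 cells. Its highest level was in Foxp3+ cells, 43.5 CPM from 9 sensitive UMIs and 24.95 CPM from 1 resistant UMI, with intervals that overlapped those of CD4 and gamma-delta cells.

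Satb1 varied less between gates. It was at 106 and 87.7 CPM in CD8 Pdcd1- cells, 83.2 and 45.7 CPM in CD8 Pdcd1+ cells, 160 and 86.2 CPM in CD4 cells and 134 and 132 CPM in gamma-delta cells. Sensitive Foxp3+ cells held 106 CPM (66.7 to 161) of it from 22 UMIs and resistant ones 274 CPM (137 to 491) from 11. Bach2 had few UMIs, 69 and 50 over all T cells. It was at 3.71 and 2.03 CPM in CD8 Pdcd1- and at 5.07 and 4.69 CPM in CD8 Pdcd1+ cells, and none of its UMIs was found in Foxp3+ cells, which allows up to 14.5 CPM in sensitive and 74.9 CPM in resistant cells.

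Ccr7, the lymph node homing receptor, followed another order. It was at 28.3 and 21.3 CPM in CD8 Pdcd1- cells and at 40.04 and 31.4 CPM in CD8 Pdcd1+ cells, against 186 and 230 CPM in CD4 cells and 440.2 and 175 CPM in Foxp3+ cells. Gamma-delta cells had 5 and 3 UMIs. Ccr7 UMIs were concentrated in few cells. In CD8 Pdcd1+ cells of the sensitive library 166 UMIs came from 36 cells, 56.6% of them from 5 cells, and in the resistant library 221 UMIs came from 46 cells, 45.7% of them from 5. Satb1, by contrast, had 345 and 322 UMIs in 248 cells of the same gate in each library, with 6.38% and 5.28% in the top 5 cells.

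S1pr1, the sphingosine-1-phosphate receptor used for egress, was at 11.6 and 8.62 CPM in CD8 Pdcd1- cells and at 1.69 and 0.994 CPM in CD8 Pdcd1+ cells, where each library had 7 UMIs. It was at 17.6 and 28.7 CPM in CD4 cells, 35.1 and 22.0 CPM in gamma-delta cells and 43.5 and 99.8 CPM in Foxp3+ cells. Outside CD8 cells these levels rest on 2 to 17 UMIs a gate. Slamf6 was at 25.5 and 16.7 CPM in CD8 Pdcd1- and at 13.3 and 7.38 CPM in CD8 Pdcd1+ cells, and at 66.2 CPM (51.0 to 84.5) and 132 CPM (83.8 to 198) in CD4 cells. Slamf6 in CD4 cells was above both CD8 gates in each library.

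**Figure D1:**
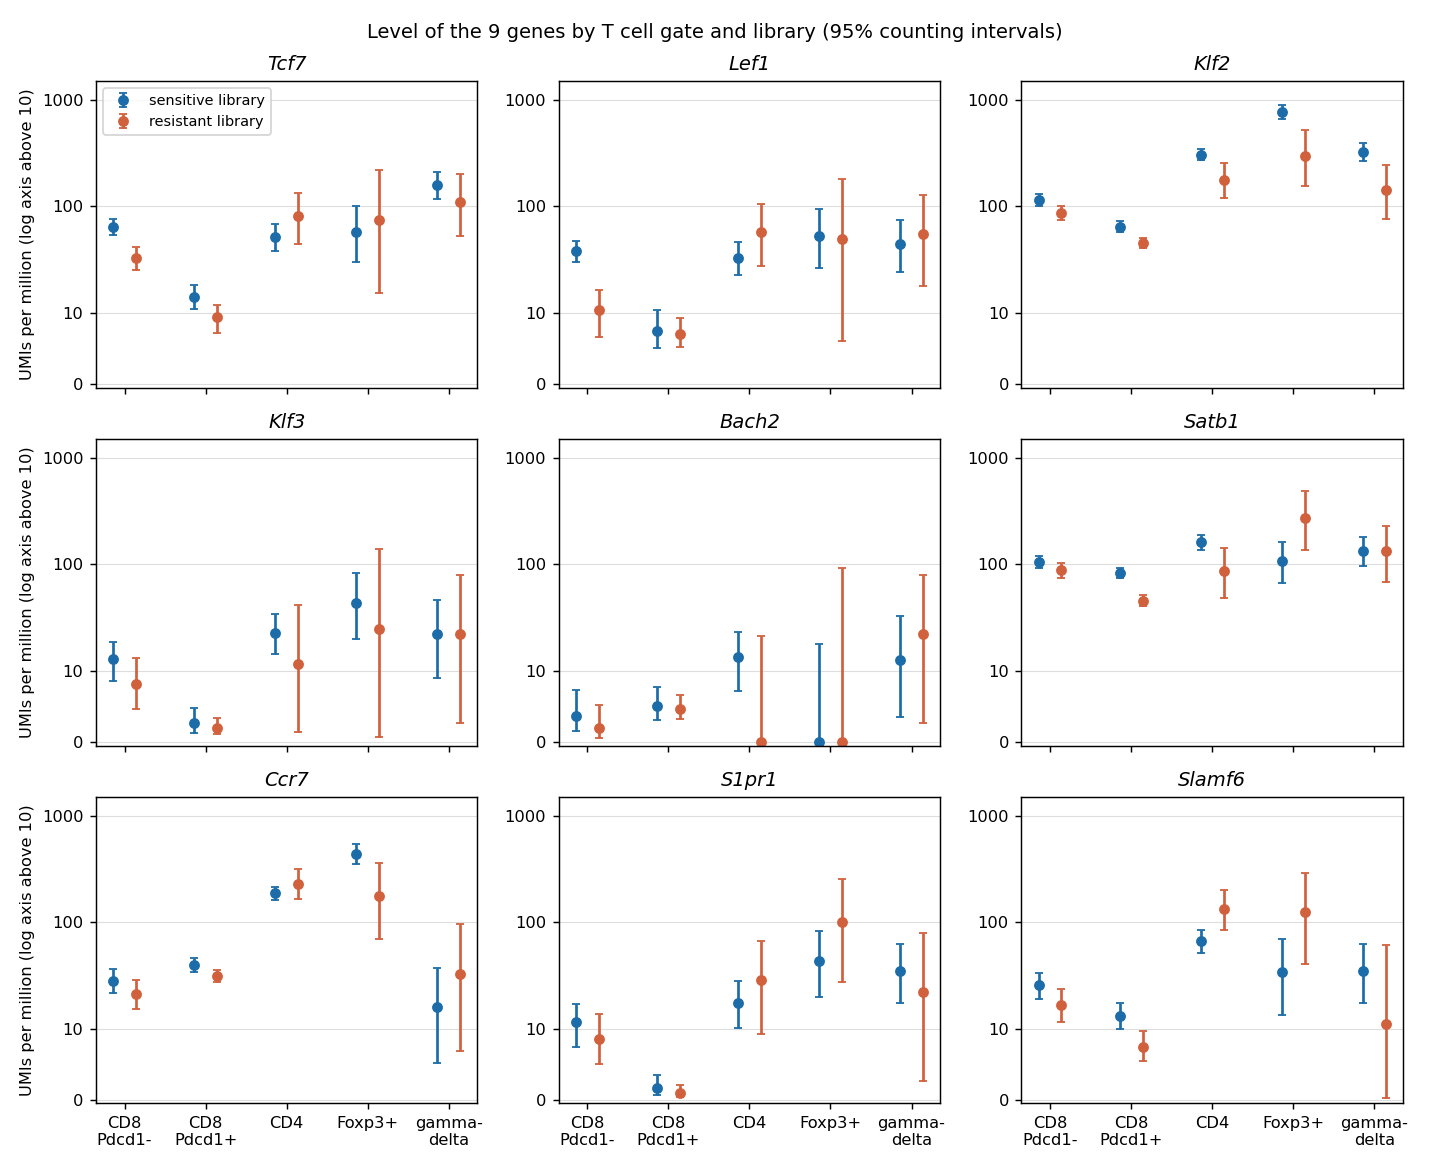
Level of each of the 9 genes in CPM (log axis above 10, linear below) in 5 T cell gates of the sensitive and the resistant T cell library, with 95% Poisson intervals as bars. Tcf7 reached 160 CPM in sensitive gamma-delta cells against 14.2 CPM in CD8 Pdcd1+ cells, and Klf2 774 CPM in sensitive Foxp3+ cells.

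The first comparison asked whether T cells of sensitive tumors held more of these transcripts than T cells of resistant tumors. Over all T cells, 8 of the 9 genes were at least 1.5-fold higher in the sensitive library, against 7.68% of the 8885 genes with at least 100 UMIs. The median ratio was 1.98 for the 9 genes and 1.10 for all those genes. Lef1 had the largest ratio (2.48, 1.98 to 3.11), followed by S1pr1 (2.28), Klf2 (2.20), Tcf7 (2.17) and Ccr7 (1.98). Bach2 fell just short of the fold, with a ratio of 1.46 whose interval of 0.999 to 2.14 included equal levels. It was past the fold in 6 of 11 alternative settings (1.26 to 2.86), in 5 of which all 9 genes were.

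The makeup of the T cells differed between the libraries as well. When each library's gate levels were averaged with the same gate mix, 2 of the 9 genes were at least 1.5-fold higher (background 5.40%), Lef1 at 1.53 (1.198 to 1.96) and Satb1 at 1.53 (1.38 to 1.70). Klf2 was then at 1.44 (1.32 to 1.58), Tcf7 at 1.37 (1.14 to 1.63), Ccr7 and Bach2 at 1.26, Klf3 at 1.11, S1pr1 at 1.10 and Slamf6 at 1.07, and the intervals of the last 3 and of Bach2 included 1. The intervals of Lef1, Satb1, Klf2 and Tcf7 overlapped and each spanned the fold, so these 4 cannot be told apart, and several of the resistant gates hold few UMIs. CD4, Foxp3+ and gamma-delta cells, in which most of the 9 genes were high, made up 9.07%, 2.41% and 4.15% of sensitive but 2.52%, 0.602% and 1.15% of resistant T cells. Why the makeup differed was not tested.

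Within CD8 cells, 6 of the 9 genes were at least 1.5-fold higher in the sensitive library, against 5.47% of the 8256 genes with at least 100 UMIs. Of the 6 members that reached 100 UMIs, 4 were past that fold. Lef1 was at 17.9 and 7.88 CPM (ratio 2.28, 1.68 to 3.11) and Tcf7 at 31.4 and 14.5 CPM (ratio 2.16, 1.73 to 2.72). S1pr1 had a ratio of 1.91 (1.09 to 3.38) from 32 and 24 UMIs, and Klf3 of 1.86 (1.13 to 3.099) from 39 and 30 UMIs. Leaving aside the cluster mix given below, S1pr1 went down to 1.37 and Klf3 down to 1.27 in alternative settings, and the count ran from 5 to 7 of the 9 genes at this fold. The intervals of S1pr1 and Klf3 each included 1 in 5 of the 10 alternative settings with an interval of their own, and that of Ccr7 in 4. Slamf6 had a ratio of 1.85 (1.38 to 2.49) and Satb1 of 1.66 (1.47 to 1.87). Klf2, at 82.0 and 54.8 CPM, fell just short of the fold at 1.497 (1.32 to 1.70). Ccr7 had a ratio of 1.23 (1.03 to 1.48) and Bach2 of 1.12 (0.665 to 1.87), so that the Bach2 levels did not differ beyond counting error.

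The CD8 cells of the libraries fell into the clusters in different shares. The cluster led by Gm156, Tcrg-C2 and Cd8a held 248 (19.1%) of the sensitive and 662 (42.7%) of the resistant CD8 cells, with Tcf7 at 8.55 and 9.69 CPM. The cluster led by Gzmk, Cxcr3, Itgae and Ccl5 held 447 (34.5%) and 226 (14.6%), with Tcf7 at 53.7 and 36.0 CPM. When the CD8 levels of the clusters were averaged with the same cluster mix in each library, an alternative chosen after seeing the data, 2 of the 9 genes were at least 1.5-fold higher in the sensitive library (background 4.82%). These were Lef1 at 1.82 (1.34 to 2.49) and Tcf7 at 1.54 (1.22 to 1.94). Satb1 was at 1.38 (1.21 to 1.57), and the intervals of the other 6 genes included 1, with Slamf6 at 1.32, Klf2 at 1.10 and S1pr1 at 1.05. Genes that vary with the 9 took part in the clustering, so these values are a description.

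Shares of CD8 cells with a UMI were compared next, beginning with Tcf7. As sequenced, 10.7% of sensitive and 5.74% of resistant CD8 cells held it. With every cell thinned to 1000 UMIs, which left out 11 and 4 shallower cells, it was 44 of 1285 cells (3.42%) and 26 of 1548 cells (1.68%), a ratio of 2.04 (1.26 to 3.29). With a 5% mitochondrial limit the ratio was 1.87 and its interval of 0.962 to 3.65 included 1. The same thinned ratio was 3.61 (1.77 to 7.36) for Lef1, 2.97 (1.56 to 5.63) for Slamf6, 1.796 (1.295 to 2.49) for Klf2 and 1.48 (1.15 to 1.91) for Satb1. For Klf3 (1.72), S1pr1 (1.21, 0.424 to 3.43), Ccr7 (1.07) and Bach2 (0.904) its interval included 1. Over all T cells it was 1.43 (0.984 to 2.07) for Ccr7, below the CPM ratio. Fibroblast-like cells of the same libraries, which should lack the gene, had a Tcf7 UMI in 0.122% and 0.163% of thinned cells, with cluster medians of 10150 to 28620 UMIs against 4004 and 4620 in CD8 cells.

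**Figure D2:**
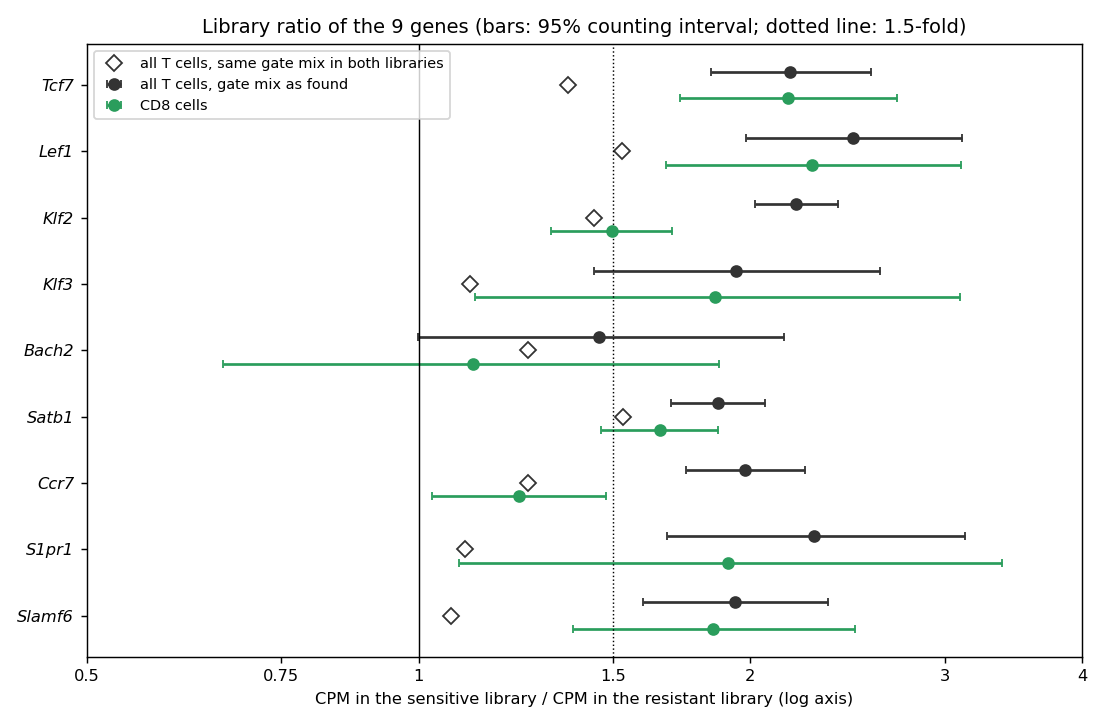
Ratio of CPM in the sensitive over the resistant library (log axis) for each gene in all T cells, in CD8 cells and in all T cells with the same gate mix in both libraries; bars are 95% counting intervals. With the same gate mix only Lef1 and Satb1 stay past the dotted 1.5-fold line, both at 1.53.

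The same comparison was made in CD8 cells without and with a Pdcd1 UMI. In CD8 Pdcd1- cells, 5 of the 9 genes were at least 1.5-fold higher in the sensitive library (background, the share of all genes with at least 100 UMIs past the same fold, 7.07%). Of the 5 members that reached 100 UMIs, 2 were past it. Lef1 had a ratio of 3.57 (2.19 to 6.07) and Tcf7 of 1.96 (1.45 to 2.67), while Satb1 was at 1.21 (0.985 to 1.48) there. Klf3 (1.60) and Slamf6 (1.52) had intervals that included 1, and Bach2 was counted on 8 against 4 UMIs. In CD8 Pdcd1+ cells, 4 of the 9 were past the fold (background 5.53%), and 3 of the 5 members with at least 100 UMIs. There Satb1 had a ratio of 1.82 (1.56 to 2.13), Slamf6 of 1.80 (1.21 to 2.68) and Tcf7 of 1.52 (1.05 to 2.19), S1pr1 was counted on 7 UMIs in each library, and Lef1 was at 1.05 (0.650 to 1.68). In 6 of 10 alternative settings the Tcf7 interval included 1, with ratios down to 1.19, as did that of Slamf6 in 2. The Lef1 intervals of the Pdcd1- and the Pdcd1+ comparison did not overlap, and neither did those of Satb1. In shares of cells thinned to 1000 UMIs they did, with Lef1 at 3.498 (1.44 to 8.49) and 2.19 (0.619 to 7.72) and Satb1 at 1.21 (0.837 to 1.73) and 1.62 (1.14 to 2.299). The Satb1 intervals in CPM overlapped at mitochondrial limits of 5% and 20% and in cells of 2000 to 8000 UMIs, so the difference between cells without and with Pdcd1 is not settled.

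Other cell markers moved with the libraries in these gates. In CD8 Pdcd1- cells 6 fibroblast genes summed to 78.3 CPM (sensitive) and 24.8 CPM (resistant), with 0 and 1 of them at 0 UMIs. The 6 macrophage or monocyte genes summed to 26.4 and 76.0 CPM, with 2 and 1 at 0 UMIs. The 5 NK cell genes, 1 of them at 0 in each library, were at 64.9 and 70.0 CPM, and B cell genes at 4.17 and 4.06 CPM with 3 of 4 at 0. The 5 neutrophil genes were at 7.88 and 30.9 CPM, with 3 and 0 of them at 0 UMIs. In CD8 Pdcd1+ cells they were at 1.93 and 34.2 CPM. Fibroblast-like cells of these libraries held 1.8 and 2.5 CPM of Tcf7 and 1.0 and 0.6 CPM of Lef1, below the level in any T cell gate. Klf2 and Klf3 were different in this respect, since fibroblast-like cells held 223 and 235 CPM of Klf2 and 87.9 and 90.4 CPM of Klf3. Neutrophil-like cells held more Klf2 than fibroblast-like cells, as given below. The part of fibroblast or neutrophil RNA in the Klf2 and Klf3 levels of T cells was not tested.

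In CD4 cells the members' ratios lay on both sides of 1, and no test of CD4 against CD8 cells was made. Of the 9 genes, 3 were at least 1.5-fold higher in sensitive CD4 cells (background 14.8%) and 4 at least 1.5-fold lower (background 8.69%). Among the 3 members with at least 100 UMIs, the genes that the background covers, 2 were higher and 0 lower. Slamf6 was lower, at 66.2 against 132 CPM (ratio 0.501, 0.307 to 0.845). Tcf7 (0.643, 0.350 to 1.26) and Lef1 (0.576, 0.276 to 1.31) had intervals that included 1, and S1pr1 was counted on 17 against 5 UMIs. Klf2 (1.71, 1.18 to 2.57) and Satb1 (1.86, 1.09 to 3.40) were higher, and Klf3 was counted on 22 against 2 UMIs. Bach2 had 13 UMIs against 0, which does not reach the fold against a floor of 3 UMIs. Only 46 CD4 cells were found in the resistant library, and the direction for Klf2, Slamf6, Lef1 and Ccr7 turned with other settings: Klf2 was at 0.948 when cells were chosen by Ptprc and Cd3e without clusters but at 10.8 with gates at 2 UMIs, Slamf6 at 1.16 with a 5% mitochondrial limit and Lef1 at 1.05 as a mean over cells. Ccr7, at 0.810 (0.572 to 1.17), was at 2.196 (1.13 to 4.89) with a 5% mitochondrial limit, at 5.55 with gates at 2 UMIs and at 0.323 (0.205 to 0.516) in cells of 2000 to 8000 UMIs. The lower bounds with gates at 2 UMIs were 2.94 for Klf2 and 1.496 for Ccr7 and the upper ones 89.5 and 46.5.

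In the smaller gates, Foxp3+ cells had a Klf2 ratio of 2.59 (1.44 to 5.11) from 160 and 12 UMIs and a Satb1 ratio of 0.388 (0.180 to 0.886) from 22 and 11 UMIs. The Klf2 ratio fell to 1.64 (0.789 to 3.94) with gates at 2 UMIs and to 1.61 (1.08 to 2.48) with a 20% mitochondrial limit. Satb1 was at 0.494 (0.238 to 1.07) with that limit and at 0.544 (0.202 to 1.61) in cells of 2000 to 8000 UMIs, so neither difference between the 47 sensitive and 11 resistant cells is settled. Gamma-delta cells had a Klf2 ratio of 2.28 (1.27 to 4.42) and a Tcf7 ratio of 1.45 (0.727 to 3.21). The Klf2 interval included 1 in 6 of 11 alternative settings, with ratios down to 1.32. Without the clusters in which fewer than 90% of cells held a Cd3 UMI, an alternative chosen after seeing the data, the Tcf7 ratio was 0.512 (0.201 to 1.54), so its direction is not settled.

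The next comparison, within each library, set CD8 cells with a Pdcd1 UMI against those without, the former being deeper (median 4609 against 3410 UMIs in the sensitive and 5285 against 3726 UMIs in the resistant library). In each library 6 of the 9 genes were at least 1.5-fold lower in the Pdcd1+ cells, against 4.90% of 6020 sensitive and 4.00% of 6783 resistant genes with at least 100 UMIs. Of the members with at least 100 UMIs, 4 of 6 in the sensitive and 3 of 4 in the resistant library were past the fold. Tcf7 was at 0.221 (0.160 to 0.302) and 0.284 (0.199 to 0.407) of its Pdcd1- level in the sensitive and resistant library. Klf3 was at 0.205 and 0.245, Klf2 at 0.560 and 0.524, and Slamf6 at 0.520 and 0.441, all with intervals below 1. For S1pr1, 7 UMIs were found in Pdcd1+ cells of either library, against 25 and 17 in the fewer Pdcd1- cells. The genes that had lower levels in Pdcd1+ cells of both libraries were therefore regulators, the egress receptor and Slamf6.

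Lef1 and Satb1 had unlike ratios in the libraries in this comparison. Lef1 was at 0.197 (0.126 to 0.301) in the sensitive but at 0.667 (0.393 to 1.17, just short of the fold) in the resistant library. For Satb1 the sensitive library had 0.788 (0.664 to 0.935) and the resistant one 0.521 (0.432 to 0.631). Neither pair of intervals overlapped. In thinned shares both pairs did, with Lef1 at 0.192 (0.0790 to 0.466) and 0.307 (0.0870 to 1.08) and Satb1 at 0.755 (0.540 to 1.06) and 0.563 (0.385 to 0.822). Since cells of 1 library are not replicates, the difference between the tumors was not tested.

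Ccr7 went the other way over all CD8 cells. It was at 1.42 (1.05 to 1.93) and 1.47 (1.06 to 2.102) in Pdcd1+ over Pdcd1- cells. Bach2 had 21 against 8 and 33 against 4 UMIs in gates of 4145769 against 2157590 and 7041895 against 1972685 UMIs in all, and its ratio had intervals of 0.581 to 3.57 and 0.822 to 8.98 that included 1. The Ccr7 direction did not hold in all cells. Among cells of 2000 to 8000 UMIs the ratios were 0.790 and 0.877, and with cells thinned to 1000 UMIs, 16 of 727 Pdcd1+ (2.20%, 4.93% unthinned) and 7 of 558 Pdcd1- cells (1.25%, 5.65% unthinned) held Ccr7 in the sensitive library, with 17 of 1060 (1.60%, 4.33% unthinned) and 9 of 488 (1.84%, 4.08% unthinned) in the resistant library. Background in the opposite direction, at least 1.5-fold higher in Pdcd1+ cells, was 6.36% of genes in sensitive and 7.22% in resistant cells, where Bach2 alone of the 9 genes was past the fold, in the resistant library.

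**Figure D3:**
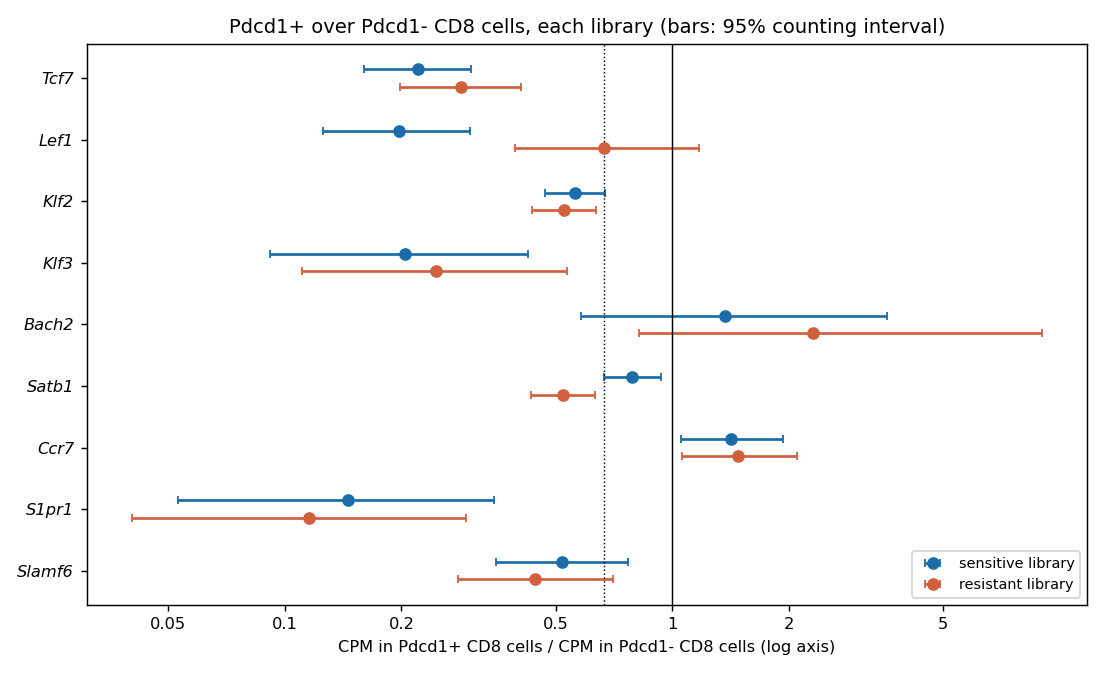
CPM in CD8 cells with a Pdcd1 UMI over CPM in CD8 cells without one (log axis) for the 9 genes in the sensitive and the resistant library, with 95% counting intervals. Tcf7 lies at 0.221 and 0.284, Ccr7 above 1 in both libraries, and Lef1 at 0.197 in the sensitive but 0.667 in the resistant library.

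Cells that hold both Tcf7 and Pdcd1 are the ones that the stem-like definition of exhausted CD8 cells describes. A Tcf7 UMI was found in 44 of 730 sensitive (6.03%, 4.41 to 8.01) and 46 of 1062 resistant CD8 Pdcd1+ cells (4.33%, 3.19 to 5.74). After thinning, it was found in 12 of 727 (1.65%) and 9 of 1060 cells (0.849%, 0.389 to 1.61). The intervals overlapped, so that a difference in this share was not detectable at this depth.

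The genes were then compared cell by cell. In thinned CD8 cells, 77.1% of sensitive and 85.9% of resistant cells held none of the 9 genes, and 11 and 6 cells held at least 3. In CD8 Pdcd1+ cells at least 3 were found in 2 sensitive cells and in 0 of 1060 resistant ones. For each gene, the share of positive cells among cells with another of the 9 genes was set against that among cells with none of the others. The median over the genes of that ratio was 2.31 in sensitive CD8 cells, with 9 of 9 above 1, and 2.86 in resistant CD8 cells, with 8 of 9 above 1. Bach2, in 0 of 214 resistant cells with a partner and in 4 of 1334 without, was left out of that median, which is 2.72 with Bach2 at 0. The counting interval of the ratio included 1 for 5 of the 9 genes in the sensitive library (Ccr7, S1pr1, Klf3, Bach2 and Satb1) and for Lef1 and Satb1 in the resistant one. With a 20% mitochondrial limit these medians were 3.73 and 5.46. For Tcf7 the shares were 7.06% with and 2.46% without a partner in sensitive cells, and 4.00% and 1.34% in resistant ones. In CD8 Pdcd1+ cells the median was 2.30 in the sensitive library, with 6 of 7 above 1, and 0.885 in the resistant library, with 3 of 6 above 1. With genes found only in cells without a partner taken at 0 (1 sensitive and 3 resistant) these medians were 2.27 with 6 of 8 genes above 1 and 0.557 with 3 of 9. In the latter, genes other than Ccr7, Klf2 and Satb1 were found in at most 9 thinned cells each. These ratios describe cells that share a library and a depth. They were computed for the 9 genes only, so how often other genes would give ratios above 1 is not known.

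Pairs were counted on all UMIs against the number expected from cells of like depth within the same library. Tcf7 and Ccr7 were together in 31 sensitive and 19 resistant CD8 cells, 4.02 and 4.73 times the expected number. Tcf7 and Slamf6 were together in 30 and 19 cells (3.34 and 4.79 times), and Tcf7 and Klf2 in 48 and 22 cells (2.03 and 1.74 times). Tcf7 with Lef1 was found in 27 cells (2.74 times) in the sensitive but in 5 cells (1.67 times) in the resistant library. The 3 pairs furthest above the expected number in the resistant library all held S1pr1, with Klf3 in 6 cells (19.4 times), with Slamf6 in 11 (12.9 times) and with Lef1 in 4 (6.47 times). S1pr1 and Klf2 were together in 16 resistant cells (5.45 times). In the sensitive library S1pr1 was with Slamf6 in 8 cells (4.78 times) and with Klf2 in 16 (3.46 times), and its pair with Ccr7 (10 cells, 5.59 times) was the furthest above the expected number. Some pairs were below it. Lef1 and Ccr7 were together in 2 resistant cells (0.560 times), Slamf6 and Bach2 in 1 (0.666 times) and Klf2 and Bach2 in 4 (0.753 times), and in the sensitive library Klf3 and Bach2 were together in none and Lef1 and Bach2 in 2 (0.984 times). Satb1 was spread most evenly. Its pairs with the other 8 genes were at 1.07 to 1.57 times the expected number in the sensitive and at 1.25 to 2.23 times in the resistant library.

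**Figure D4:**
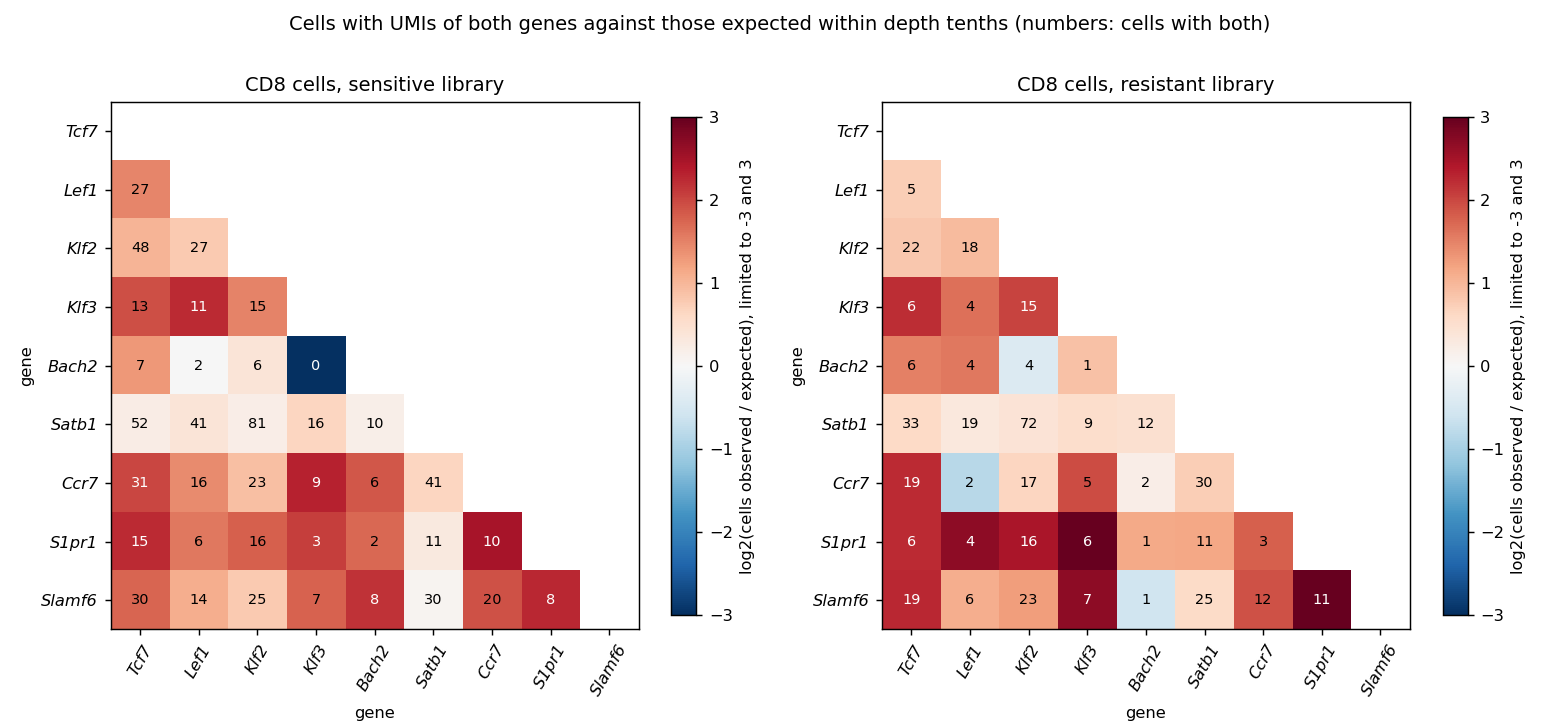
Number of CD8 cells holding both genes of a pair over the number expected in cells of like depth, for the 36 pairs in the sensitive and the resistant library. Tcf7 with Ccr7 is at 4.02 and 4.73, and pairs with Satb1 lie between 1.07 and 2.23.

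CD8 cells with a Tcf7 UMI, 139 sensitive and 89 resistant, were compared with those without one, 1157 and 1463 cells, at median depths of 3884 against 4010 and 5166 against 4590 UMIs. Of all genes with at least 100 UMIs, 4.10% and 6.60% were at least 1.5-fold higher with Tcf7 (sensitive, then resistant) and 10.3% and 11.1% lower. Ccr7 was at 182 against 18.5 CPM in the sensitive (9.82-fold, 7.50 to 12.9) and at 102 against 24.5 CPM in the resistant library (4.16-fold, 3.04 to 5.61). Slamf6 was 5.75-fold and 6.41-fold higher with Tcf7, Klf2 3.49-fold and 2.58-fold, and Satb1 1.63-fold and 1.81-fold, all beyond counting error. S1pr1 was counted on 18 against 14 and 7 against 17 UMIs, the larger cell set being the one without Tcf7. Lef1 was 5.10-fold higher (3.41 to 7.56) in the sensitive library, but in the resistant library the ratio of 1.42 rested on 6 UMIs and its interval included 1.

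Ranked over 5957 genes by the lower of the 2 library ratios, Ccr7 was the gene most like Tcf7 in CD8 cells among those ranked. It was followed by Cxcr4 (3.44 and 3.55), the receptor of CXCL12, then Sidt1 (4.31 and 3.23), Tyrobp (3.31 and 3.18), an adaptor of NK and myeloid receptors, and Cxcl10 (2.89 and 3.11), a chemokine. Cd7 (2.69 and 2.88), Klf2, Ms4a4c (2.45 and 4.47), Kbtbd11 (2.49 and 2.43) and A930005H10Rik (2.34 and 2.43) completed the 10, and Satb1 was at rank 36. The other members had fewer than 100 UMIs in CD8 cells of a library and were not ranked. Of these, Slamf6 had ratios (5.75 and 6.41) that were both above the lower ratio of Ccr7 (4.16). The CD8 gate took in 32 sensitive and 20 resistant cells of a cluster led by Ncr1, an NK cell gene, and Cd7. They held 33 and 12 Tcf7 UMIs (166 and 84.1 CPM), and the part of these cells in the ranking was not tested.

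Other genes of naive and progenitor T cells were read from fixed lists, counting those with at least 100 UMIs. Of 11 naive companions 9 were counted in the library comparison of CD8 cells, and 2 were at least 1.5-fold higher in the sensitive library and 1 lower (background 5.47% higher and 2.45% lower). Foxo1, which drives Klf2, had a ratio of 2.02 (1.71 to 2.38) and Igfbp4 of 1.58 (1.12 to 2.24). Dapl1 was lower, at 0.371 (0.265 to 0.510). Of 7 progenitor genes 4 were counted, and 2 were lower in the sensitive library and none higher, Cd200 at 0.545 and Tnfsf8 (CD30 ligand) at 0.625. Cd200 and Tnfsf8 thus did not share the direction of Tcf7.

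Among 7 egress and retention genes, of which 6 were counted, Itgb7 (integrin beta 7) had a ratio of 2.85 (2.55 to 3.19) and no other gene passed the fold. Of the 6 regulators known to oppose the naive program, all counted, 4 were also at least 1.5-fold higher in sensitive CD8 cells. These were Zeb2 (1.65), Prdm1 (1.65, encoding BLIMP1), Batf (1.63) and Tbx21 (1.59, encoding T-bet), and none was lower. Of 8 exhaustion genes Ctla4 alone was higher (1.903), and of 8 counted relatives of the members Slamf1 alone (1.901). None of the 4 counted TCF partners passed the fold either way. Higher levels in sensitive CD8 cells were therefore found both among the 9 genes and among regulators of the opposite program.

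With Pdcd1, the lists separated. Of 8 exhaustion genes, 6 (sensitive) and 3 (resistant) were at least 1.5-fold higher in Pdcd1+ CD8 cells and none was lower, against a background of 6.36% and 7.22%, with Havcr2 (TIM-3) at 3.43 and 2.02 and Tox at 2.91 and 1.92. The background for lower genes was 4.90% (sensitive) and 4.00% (resistant). Of the naive companions 2 of 7 and 2 of 8 counted genes were lower, Rasgrp2 at 0.479 and 0.661 and Foxp1 at 0.580 and 0.594. Dapl1 (1.93) was higher in the resistant library. Among opposing regulators 3 and 1 of 6 were higher and none lower. Prdm1 (2.501 and 1.09) and Batf (1.72 and 1.44) were past the fold in the sensitive library only and Zeb2 (0.911 and 1.54) in the resistant library only. The resistant Zeb2 interval of 0.997 to 2.455 included 1, and the difference between the libraries was not tested. Of the relatives 2 of 5 counted were lower in each library, among them Slamf7 at 0.567 and 0.604, and the 4 counted TCF partners stayed within the fold. Of 3 and 4 counted progenitor genes 2 were higher and none lower. Xcl1, a chemokine that attracts dendritic cells, was at 5.22 and 1.53 and Cd200 at 3.27 and 2.54, both higher with Pdcd1 in each library, unlike Tcf7 and Slamf6. Of 6 egress and retention genes 2 were lower in each library and none higher, Itgae (CD103) at 0.265 and 0.227 and Itgb7 at 0.399 and 0.277. The gene of CD103, which retains cells in epithelium, was thus lower in Pdcd1+ cells together with the egress genes Klf2 and S1pr1.

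Over the 10 values formed by 5 gates in 2 libraries, the mean of the 9 genes on a log2(CPM + 10) scale, centred per gene, ran from -1.17 in resistant and -0.90 in sensitive CD8 Pdcd1+ cells to 0.75 in sensitive and 0.85 in resistant Foxp3+ cells. S1pr1 (r = 0.896), Klf3 (0.885), Lef1 (0.879) and Klf2 (0.875) followed the mean of the others most closely, then Satb1 (0.735), Tcf7 (0.701), Slamf6 (0.686) and Ccr7 (0.525). Bach2 did not follow it (-0.153). Among 6506 genes, those with the pattern most like the 9 were Nr3c1 (r = 0.943), the glucocorticoid receptor gene, Gpr132 (0.939), Selenos (0.934), Fam129a (0.926) and Emb (0.920). These are descriptions over 10 values that share 2 libraries, and several gates hold few cells.

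The same genes in other cells of the T cell libraries set the background for a UMI in T cells. Endothelial-like cells, 9 and 8 in number, had 337 and 277 CPM of S1pr1, and neutrophil-like cells 1246 and 1162 CPM of Klf2, above every T cell gate. Macrophage or monocyte-like cells held 19.8 and 23.2 CPM of Slamf6, a level in the range of CD8 T cells. Tcf7 and Lef1 were at most 21.5 CPM in any of these cell classes and Satb1 at most 13.8 CPM. Ccr7 was highest among them in dendritic cell-like cells (38.7 and 13.4 CPM). A cluster of 28 cells led by Ccl22, Ccr7 and Fscn1, genes of mature dendritic cells, passed the rule for T clusters because 42.9% of its cells held a Cd3 UMI. Its 4 and 8 gated T cells held 25 and 37 Ccr7 UMIs and no Tcf7, Lef1, S1pr1, Klf3 or Slamf6 UMI.

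The whole-tumor libraries have another gene list and are not set against the T cell libraries. T cells numbered 67 of 488 kept cells in the tumor labelled control, 2 of 269 in that labelled sensitive and 9 of 263 in that labelled resistant. The authors reported the largest T cell share in the sensitive tumor, an order these counts do not have, and the reason was not tested. The 67 control T cells had a median of 1353 UMIs, and 39 of them fell in no gate. Tcf7 was at 129 CPM (70.6 to 217) from 14 UMIs, Lef1 at 314 CPM (217 to 439), Ccr7 at 443 CPM (327 to 587) and S1pr1 at 157 CPM (91.4 to 251). The 399 control cells outside the T cell cluster held 3.33, 4.66, 1.997 and 3.99 CPM of these genes. The 22 cells of that cluster without a Cd3 UMI, which were not counted as T cells, held 141, 563, 599 and 141 CPM, and with them added to the other cells the levels there were 5.88, 15.03, 13.1 and 6.53 CPM, below those of the T cells. A Satb1 UMI was found in 61.2% of the T cells and 3.01% of the 399 other cells, at 785 and 12.0 CPM. Slamf6 was at 102 CPM in T cells and 0.666 CPM in other cells, and Bach2 at 18.5 and 0.666 CPM from 2 UMIs and 1 UMI. Klf2 and Klf3 did not separate the cells, with Klf2 at 738 CPM (586 to 919) in T cells and 857 CPM in others and Klf3 at 92.3 and 67.2 CPM.

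The cluster that gave these T cells was made without the 9 genes but was led by Trbc2, Lat, Cd3e and Trac together with Ccr7, Satb1 and Lef1, which is a description of the cluster and not a separate result. Control CD4 cells (13 cells) held 8 Lef1, 12 Ccr7 and 19 Satb1 UMIs, and CD8 Pdcd1- cells (9 cells) 3, 6 and 4. The single control CD8 Pdcd1+ cell held 3 Ccr7 UMIs and none of the other 8 genes. In the 9 T cells of the tumor labelled resistant, Tcf7 was at 122 CPM (25.1 to 355) and Klf2 at 405 CPM (194 to 745), and a Slamf6 UMI was found in none, which allows a share of cells with a UMI of up to 33.3%. The 2 T cells of the tumor labelled sensitive held 1 Tcf7, 3 Klf2 and 3 Satb1 UMIs. Summed over the 9 genes, the level was 2778 CPM (2473 to 3110) in control and 1256 CPM (854 to 1783) in resistant-labelled T cells. Those intervals did not overlap, but each label stands for 1 tumor, and 10 of 67 control against 5 of 9 resistant-labelled T cells were CD8 cells.

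**Figure D5:**
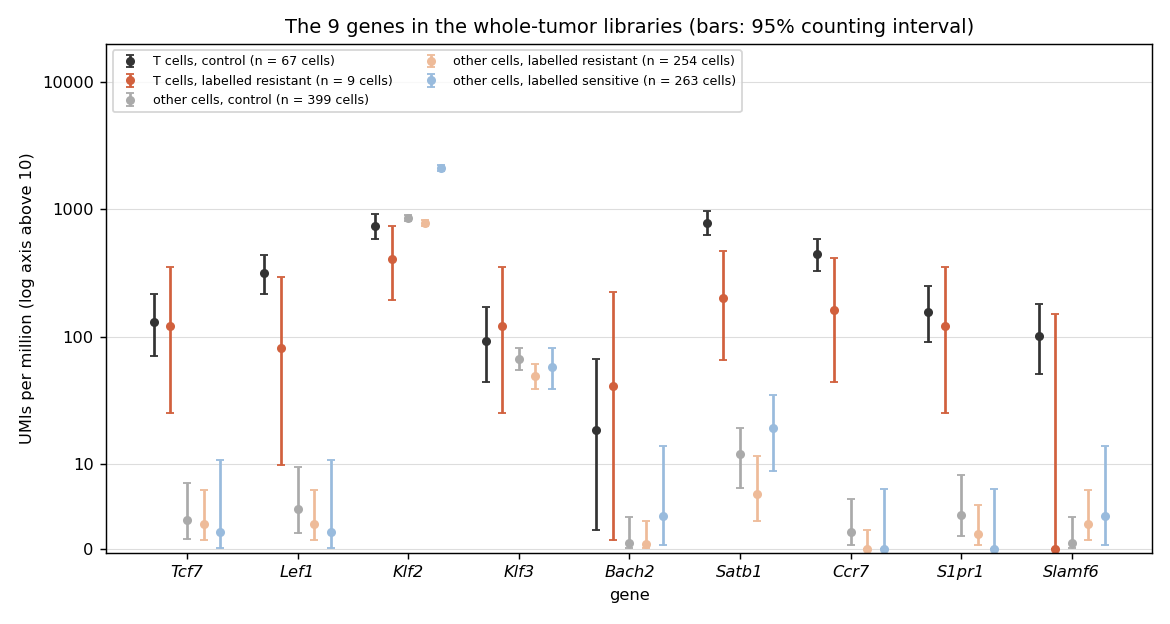
Level of the 9 genes in CPM (log axis above 10, linear below) in T cells and in the cells outside the T cell cluster (other cells) of the whole-tumor libraries, with 95% Poisson intervals and without the 2 T cells of the tumor labelled sensitive. In the control, Lef1 was at 314 CPM in T cells against 4.66 CPM in other cells, whereas Klf2 was at 738 and 857 CPM.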

How the data were processed

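Single-cell libraries were made on the 10x Chromium platform. Per the headers of the deposited counts, the T cell libraries were counted with Cell Ranger 6.0.0 and the whole-tumor libraries with Cell Ranger 3.0.1. The deposited files hold raw UMI counts per gene and barcode, without normalization. The 9 genes, the gates and the companion lists were chosen with earlier results of these data known.

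From the counts, barcodes of the T cell libraries were kept from 500 genes upward and up to 10% mitochondrial UMIs (whole tumor: 200 genes, 20%; their mitochondrial genes were all at 0 UMIs). The cells with the highest Scrublet scores (scanpy 1.11.5) were removed as doublets at 0.8% per 1000 barcodes in the T cell libraries only, and none in the whole-tumor libraries. Cells were scaled to 10000 UMIs, and 2000 variable genes without the 9 members, 30 principal components and 15 neighbours gave Leiden clusters at resolution 1. T clusters had at least 40% of cells with a Cd3 UMI, and gates were read from single UMIs.

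Counts were summed by gate and library and given as CPM with exact Poisson intervals. CPM ratios have exact conditional binomial intervals, shares Clopper-Pearson intervals and share ratios and ratios with the same gate or cluster mix a delta-method interval on the log scale. Share comparisons used cells thinned to 1000 UMIs. A gene was counted as higher or lower past 1.5-fold, a gene at 0 being set to 3 UMIs, and percentages of all genes cover those with at least 100 UMIs. Ratios of the main setting are printed where both sides hold at least 10 UMIs, except Lef1 in resistant Tcf7+ cells and those with the same gate or cluster mix, and alternatives can rest on fewer. Expected pairs were summed over depth deciles of cells. Named genes were all 9 members, 2 to 4 companion genes of a list, led by the largest ratios among those with at least 100 UMIs (1 listed gene is not reported here, and those named between Tcf7+ and Tcf7- cells were chosen after their values were seen), the 10 genes most like Tcf7 and the 5 most like the pattern over gates. PCR duplicates are collapsed by UMIs, and intervals do not cover variation between mice. The ratio code was tested on simulated counts. Alternatives covered cell selection, doublets, mitochondrial limits, gates at 2 UMIs, depth, scaling, thinning, the fold and the minimum of UMIs.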

Additional observations from a re-analysis of the deposited data

How the results depend on the processing

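Of 677 values recomputed under alternatives, 616 stayed within the counting interval of the reported value (within 1.5 times for a count, or within the range over genes for a median over genes), 58 lay outside it and 3 were past 1.5-fold on one side of 1 and then on the other side. Those 3 were in CD4 cells, of which the resistant library held 46: the sensitive over resistant ratio was 0.948 for Klf2 with cells chosen by Ptprc and Cd3e, 1.16 for Slamf6 with a 5% mitochondrial limit and 1.05 for Lef1 as a mean of CPM over cells. Of 596 ratios, 25 crossed 1, 15 in CD8, 5 in CD4 and 5 in gamma-delta cells, and 5 of the 25 had an interval that excluded 1 as reported (Klf2 and Slamf6 in CD4 cells, Ccr7 with over without Pdcd1 for the others). Of 433 ratios compared with a reported interval that excluded 1, 58 had an interval that included it under the alternative, ratios with the same gate mix not counted. The count of genes at least 1.5-fold higher in all T cells went from 8 to 2 with the same gate mix, and was 8 or 9 under the other settings at that fold. In CD8 cells it went from 6 to 2 with the same cluster mix. At 2-fold it was 4 in all T cells and 2 in CD8 cells, against 2.51% and 1.07% of all genes with at least 100 UMIs. With whole-tumor T cells taken as cells with a Ptprc and a Cd3d UMI, the summed level of the 9 genes was 1438 CPM in control and 368 CPM in resistant-labelled cells, and the cause was not tested. With a minimum of 20 UMIs the shares of all genes past the fold were 11.9% and 8.80% for the library comparison (all T, CD8) and 8.68% and 7.91% for the Pdcd1 comparison (sensitive, resistant). The Ccr7 library ratio in CD8 cells was 1.59 with a 5% mitochondrial limit. The Tcf7 ratio in all T cells ran from 1.72 with a 20% to 2.58 with a 5% limit. The ratio of Tcf7 shares in CD8 cells ran from 1.80 with only clusters of at least 90% Cd3+ cells, chosen after seeing the data, to 2.64 in cells of 2000 to 8000 UMIs, and its interval included 1 with a 5% mitochondrial limit alone (1.87, 0.962 to 3.65). Without cells holding B, NK or dendritic cell UMIs, also chosen after seeing the data, it was 2.15. No paired analysis was possible because each group had 1 library, and no replicate could be left out for the same reason. Depth limits Bach2, S1pr1 and Klf3, which had fewer than 40 UMIs in CD8 cells of each library.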

Other observations

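The companion lists were also counted between CD8 cells with and without a Tcf7 UMI. Of 8 exhaustion genes, 6 (sensitive) and 4 (resistant) were at least 1.5-fold lower with Tcf7 and 0 and 1 higher, against 10.3% and 11.1% of all genes lower and 4.10% and 6.60% higher. Of 6 opposing regulators 2 were lower in each library and none higher. Of the naive companions 3 of 7 and 3 of 8 counted were higher and none lower, of the progenitor genes 1 of 3 and 2 of 4 higher and 1 and 0 lower, and of 6 egress and retention genes 2 and 1 higher and 1 lower in each. Of 5 counted relatives 0 and 1 were higher, and of 4 TCF partners 1 in each, and none was lower. Havcr2, a gene of terminally exhausted cells, was counted on only 5 and 3 UMIs in Tcf7+ cells. Entpd1 (CD39) was at 0.276 and 0.411 of its level in Tcf7- cells, Cxcr6 at 0.572 and 0.617, and Id2, a regulator of effector cells, at 0.529 and 0.610. Xcl1 differed in direction between the libraries, at 0.425 in sensitive and 2.35 in resistant cells. Itgb7 was 1.66-fold and 2.24-fold higher with Tcf7. These are cells of 1 library each, and no test over tumors exists.

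By cluster, the CD8-rich cluster led by Gzmk, Cxcr3, Itgae and Ccl5 held Tcf7 at 62.4 CPM in 487 sensitive and at 37.2 CPM in 237 resistant T cells. In the cluster led by Gzmf, Prf1 and Gzmg it was at 10.4 and 3.09 CPM, and in that led by Gm156, Tcrg-C2 and Cd8a at 8.99 and 9.42 CPM. The direction was the opposite in a cluster led by immunoglobulin genes, in which 91.4% of cells held a Cd3 UMI. Its 312 sensitive and 111 resistant T cells had Tcf7 at 59.9 and 98.0 CPM, Ccr7 at 133 and 224 CPM, S1pr1 at 28.5 and 56.6 CPM, Klf3 at 23.7 and 54.4 CPM and Slamf6 at 78.3 and 109 CPM. Lef1 was at 32.0 and 39.2 CPM there, on 54 and 18 UMIs. These values by cluster have no intervals, so the direction of Lef1 is not settled. In that cluster Satb1 (182 and 133 CPM) was higher in sensitive cells and Klf2 was at 304 and 309 CPM. Bach2 (17.8 and 6.53 CPM) was counted there on 30 against 3 UMIs. S1pr1 was at 14.0 and 13.1 CPM in the Gzmk cluster and at 1.04 CPM and 0 UMIs in the Gzmf cluster. The cluster made of 274 cells led by Ncr1, an NK cell gene, in which 56.2% of cells held a Cd3 UMI, had Tcf7 at 188 and 116 CPM in its gated T cells. Clusters were made without the 9 genes, but genes that vary with them took part, so these values are a description.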
